A study of Mus musculus with 67 samples.

Results

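Myh11 encodes the smooth muscle myosin heavy chain, the motor protein of contractile smooth muscle. Passage 2 vascular smooth muscle cells (VSMCs) from mouse aorta were divided by it: 18 cells had a deposited Myh11 value of at least 10 and are called Myh11-positive, and 27 had a lower value and are called Myh11-low. These were the 45 passage 2 cells of 67 cells in the series. The members were chosen by the measured Myh11 value, so Myh11 itself is given only as a description, and because every other gene was read in the same libraries, no comparison below carries a test.

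The tissue was the descending aorta, taken from C57Bl6 males 3 to 4 months old, and no genotype or treatment separated the groups. Isolated cells were left for 5 days in medium that held 10% serum and 1% antibiotic, and the passage 1 cells were then detached with trypsin and replated as passage 2. Each cell was captured on a microfluidic C1 chip and became 1 RNA sequencing library. Which animal or culture a cell came from is not labelled, so each group counted as 1 sample, SDs describe the spread between cells, and no p-value or standard error was computed.

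Smooth muscle contracts when myosin thick filaments pull on actin thin filaments, and the thin filaments are tied through dense bodies and adhesion plaques to the membrane and the matrix. Phosphorylation of the myosin regulatory light chain by myosin light chain kinase starts contraction, and nitric oxide opposes it through soluble guanylate cyclase. In culture VSMCs are known to lose part of this apparatus and to make more matrix, and Myh11 is regarded as one of the more specific markers of the contractile state. Many genes of the apparatus carry CArG boxes, the binding sequence of serum response factor, which myocardin activates.

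Values are reads per gene divided by a size factor for each cell, and are called normalised reads. Myh11 (ENSMUSG00000018830, chromosome 16, 14194535 to 14291372 on the minus strand of GRCm38) ranged from 10.4 to 618 normalised reads in the Myh11-positive cells, with a median of 71.7, and from 0 to 6.66 in the Myh11-low cells, with a median of 0. The summed reads were 2096 in the Myh11-positive cells (95% exact Poisson interval 2007 to 2188) and 12 in the Myh11-low cells (6.2 to 21). In 22 of the 27 Myh11-low cells no Myh11 read was found, which at 3 reads allows a value of up to 1.44 to 6.08 across these cells. Just inside the threshold stood passage 2 cells 4 and 30, with 10.4 and 11.3 normalised reads (9 and 12 reads). Just outside it stood cell 29 with 6.66 (7 reads), and the next was cell 45 with 1.99 (2 reads). The highest values were 618 in cell 38, 299 in cell 3 and 293 in cell 19. At passage 1, 2 of 22 cells reached 10, cell 9 with 197 and cell 17 with 64.8 normalised reads.

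**Figure D1:**
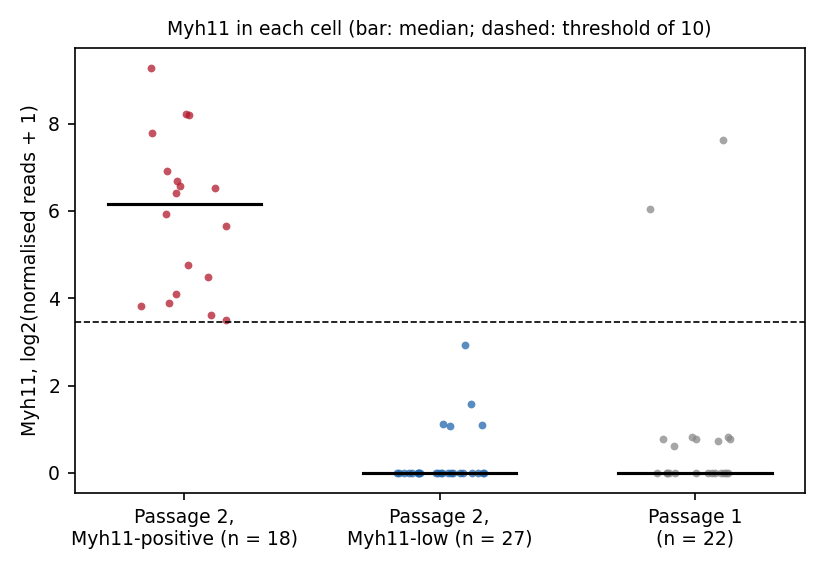
Myh11 in each cell on a log2 scale (log2 of normalised reads plus 1) for the 18 Myh11-positive and 27 Myh11-low passage 2 cells and the 22 passage 1 cells. The bar is the median and the dashed line the threshold of 10; most Myh11-low cells sit at 0, and 2 passage 1 cells lie above the line.

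Depth was alike in the groups. Total reads were 584671 to 1281192 in the Myh11-positive cells (median 878559) and 548419 to 1509589 in the Myh11-low cells (median 886710). The median number of genes with a read was 7208.5 against 7269, and the median share of mitochondrially encoded reads 4.82% against 5.13%. One library in each group stood apart by few genes, cell 13 with 4163 genes among the Myh11-positive cells and cell 15 with 4754 among the Myh11-low cells. Cycling cells, with Mki67 or Top2a at 10 or more, were 4 of 18 and 6 of 27. Among them, cells 30, 32 and 45 had no Mki67 read and Top2a at 14.1, 10.6 and 17.9, not far above the cutoff. At least 3 of 10 endothelial markers reached 10 in 0 of 18 Myh11-positive cells and in 2 of 27 Myh11-low cells, cells 8 and 11. The summed endothelial marker level ran from 0 to 194 in the Myh11-positive cells and from 0 to 7012 in the Myh11-low cells. The endothelial genes Cdh5, Tek and Egfl7 had no read in any Myh11-positive cell, and Cldn5 had none in either group. Other members were read in both, Vwf in 10 of 18 and 17 of 27 cells and Tie1 in 7 of 18 and 12 of 27. At least 3 of 10 fibroblast markers reached 10 in 14 of 18 against 23 of 27 cells, with summed levels of 173 to 3689 against 48 to 4577, and at least 3 of 10 pericyte markers in 15 of 18 against 19 of 27 cells, with summed levels of 174 to 28054 against 25 to 46449. Clec3b among the fibroblast markers and Higd1b among the pericyte markers were at 0 in both groups, and no cell had 3 macrophage, striated muscle or lymphocyte markers at 10. The part of the fibroblast and pericyte marker levels in the results was not tested. List counts were repeated in 3 ways, leaving out the endothelial marker cells, the 10 cycling cells or the 25% of cells that had the fewest genes. Genes no longer 2-fold apart in a repeat are named with their list, and for the cell cycle list the counts are given. Genes newly 2-fold apart in a repeat are not all named.

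Over all genes, few separated single cells of the groups. Of 8100 genes with a mean of 10 or more in a group, and detected in 25% or more of the cells there, 951 (11.7%) had a mean at least 2-fold higher in Myh11-positive cells and 1508 (18.6%) a mean at least 2-fold lower, on the log2(mean + 1) scale, on which differences of low genes come out smaller. Few of these held over single cells: when the Myh11-positive cell also had to be the higher one in at least 70% of all pairs of a Myh11-positive and a Myh11-low cell, 55 genes (0.679%) were higher, and with at most 30% of pairs 40 genes (0.494%) were lower. The median log2 ratio of all 8100 genes was -0.12, and 43.5% of genes had a ratio above 0. In the text below "higher in 70% of cell pairs" means this comparison of single cells, with ties shared equally. Genes outside the rule given with the methods, such as Zyx, Mef2c, Itga1, Gna11, Gucy1a1, Gucy1b1, Mmp2, Fbn1, Heyl and Casq2, were chosen after their values were seen. A gene could pass the filter through 1 group alone. With a mean under 10 in the other group, its ratio could only favour the group it passed through. Among list members this held for Csrp1 and Ldb3 on the higher side and for Icam1, Mmp2 and Runx2 on the lower. The shares of all genes rest on the same filter.

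Most contractile filament genes had a higher mean in the Myh11-positive cells, with wide overlap. All 16 thin filament genes passed the filter on low values. Of these, 5 (31.25%, against 11.7% of all genes) had a mean at least 2-fold higher in Myh11-positive cells. None had a mean 2-fold lower, against 18.6% of all genes, and 14 had a log2 ratio above 0. These 5 were Acta2, Tagln, Lmod1, Cnn1 and Synpo2, of which Acta2, Tagln and Lmod1 were also higher in at least 70% of cell pairs. Synpo2 passed the filter only through the Myh11-positive cells. The median log2 ratio of the list was 0.40, against -0.12 for all genes. Without the 10 cycling cells the same count was 9 of 16 (56.25%, against 14.1% of all genes). The median was then 1.17, against -0.14 for all genes, and Actg2, Tpm1, Tpm2 and Smtn were also 2-fold higher. With only cycling Myh11-low cell 14 left out the list median was 0.89, and the part of cycling was not tested.

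Acta2 (ENSMUSG00000035783, chromosome 19, 34241090 to 34255590) encodes the smooth muscle α-actin and had 344 normalised reads in the lowest, a median of 4808 and 17576 in the highest Myh11-positive cell, and 153 in the lowest, a median of 2071 and 8358 in the highest Myh11-low cell. It was read in all 45 cells and the groups overlapped widely, but 3 Myh11-positive cells lay above every Myh11-low cell and 4 of 27 Myh11-low cells lay above the Myh11-positive median. The means were 5951 ± 4954 and 2640 ± 2276 (SD, n = 18 and 27 cells), a log2 ratio of 1.17, and the Myh11-positive cell was higher in 72.6% of pairs. Without cell 24, which held the highest value, the log2 ratio was 0.996, at the edge of 2-fold. Actin genes share near-identical sequence, and the sources used here do not give how reads that map to several genes were handled, so Acta2, Actg2 and Actb counts are uncertain in this respect. Actg2, the enteric smooth muscle actin, averaged 14.5 ± 51 and 13.6 ± 53.5 with medians of 0, and its log2 ratio of 0.09 was 1.64 without cell 14 and -2.00 without cell 37.

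Tagln encodes transgelin, which binds actin filaments (ENSMUSG00000032085, chromosome 9, 45929619 to 45936058). Its values were 336 to 6547 with a median of 2264 in Myh11-positive cells and 20.3 to 3483 with a median of 1175 in Myh11-low cells. At the ends, 5 of 18 Myh11-positive cells lay above every Myh11-low cell and 7 of 27 Myh11-low cells below every Myh11-positive cell. The log2 ratio was 1.07 with 73.9% of pairs, and it was 0.97 without the endothelial marker cells and 0.91 without the 25% of cells with the fewest genes, just under 2-fold. Leaving out cell 38 gave 0.94 and leaving out cell 24 gave 0.98. Tagln overlaps Pcsk7 on the other strand, and the sources used here do not give whether counting used strand, so reads of the pair cannot be told apart. The same holds for other named genes that overlap genes on the other strand. Among them are Mylk, Itga8, Eln, Rps6kb1, Tgfb3, Npnt, Synpo2, Smtn, Srf, Notch3, Alg3, Tbl3 and Tmbim4.

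Lmod1, leiomodin, starts actin filament assembly in smooth muscle. It ran from 0 to 251 with a median of 64.9 in Myh11-positive cells and from 0 to 160 with a median of 15.5 in Myh11-low cells. It reached 10 in 16 of 18 Myh11-positive cells (88.9%, exact 95% interval 65.3 to 98.6) and in 15 of 27 Myh11-low cells (55.6%, 35.3 to 74.5). These intervals, here and below, treat cells as independent and are not a comparison of the groups. The highest share at 10 of a lymphocyte or striated muscle marker, which these cells should lack, was 11.1% in Myh11-positive cells (Lck) and 7.41% in Myh11-low cells (Tnni3), at median depths of 878559 and 886710 reads. The log2 ratio of Lmod1 was 1.15, or 0.99 without cell 37, and 73.1% of pairs were higher.

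The tropomyosin genes Tpm1 and Tpm2, which encode the rods that lie along actin, were higher by less than 2-fold but in most pairs. Tpm1 averaged 1058 ± 740 in Myh11-positive cells and 582 ± 500 in Myh11-low cells, a log2 ratio of 0.86 (at the edge of 2-fold without cell 1) with 70.4% of pairs. Tpm2 averaged 411 ± 272 and 284 ± 318, a log2 ratio of 0.53 with 69.8% of pairs, and it had a read in every Myh11-positive cell. Caldesmon (Cald1) averaged 2918 ± 2139 and 2419 ± 1283 with 55.3% of pairs, and Tpm4, the lowest of the list, had a log2 ratio of -0.08. The ubiquitous members Tagln2, Cnn2, Cnn3 and Tpm3 lay within 0.06 log2 units of 0.

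Cnn1 and Synpo2 showed another pattern, high values in few cells. Cnn1, basic calponin, reached 10 in 5 of 18 Myh11-positive cells (27.8%, 9.69 to 53.5) and in 3 of 27 Myh11-low cells (11.1%, 2.35 to 29.2). Its highest values were 484 in cell 38 and 242 in cell 4 among Myh11-positive cells, against 188 in cell 34 among Myh11-low cells, and both medians were 0. The log2 ratio of 2.05 was 0.90 without cell 38 and 3.39 without cell 34. Synpo2, an actin-bundling protein of the Z-disc and dense body, had a read in 50% of Myh11-positive and 11.1% of Myh11-low cells, with highest values of 319 and 250. Its log2 ratio of 2.25 was 5.06 without cell 41, the one Myh11-low cell with a high value, and 0.38 at a Myh11 threshold of 50.

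Among thick filament genes, a light chain and the kinase that acts on it were higher. Of 7 measured members of 8, Myl9 and Mylk (28.6%, against 11.7% of all genes) had a mean at least 2-fold higher. None had a mean 2-fold lower, against 18.6% of all genes, and the list median was 0.25. Without the 25% of cells with the fewest genes none of the 7 was 2-fold higher, and without the endothelial marker cells Myl9 and Mylk both were. Myl9, the smooth muscle regulatory light chain (ENSMUSG00000067818, chromosome 2, 156775420 to 156781658), ran from 3.76 to 2911 with a median of 475 in Myh11-positive cells and from 0 to 1201 with a median of 156 in Myh11-low cells. In 6 Myh11-positive cells it lay above every Myh11-low cell, and 8 of 27 Myh11-low cells lay above the Myh11-positive median. Of these 6, cells 33 (1201.8) and 3 (1203.6) were nearly tied with Myh11-low cell 14 (1201.4). The log2 ratio was 1.16 with 70.2% of pairs, and it was 0.90 without cell 24 and 0.87 both at a Myh11 threshold of 50 and without the cells with the fewest genes.

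Myl6, the essential light chain that smooth and nonmuscle myosin share, was higher by less than 2-fold in most pairs. It ran from 236 to 1208 in Myh11-positive cells and from 85.1 to 749 in Myh11-low cells, averaged 626 ± 263 and 430 ± 193, and was higher in 71.6% of pairs at a log2 ratio of 0.54. Mylk, myosin light chain kinase, averaged 263 ± 506 and 70.4 ± 110, but the pairs were 60.1%, and the log2 ratio of 1.88 was 1.17 without cell 5, which held 2008 normalised reads, and 0.44 without the cells with the fewest genes. The nonmuscle heavy chains Myh9 and Myh10 had log2 ratios of 0.21 and 0.25, and Myl12a and Myl12b, the nonmuscle regulatory light chains, 0.16 and -0.20. Actb, cytoplasmic β-actin, averaged 11506 ± 3916 and 8791 ± 2649, a log2 ratio of 0.39 with 72.6% of pairs, and was the one housekeeping gene of 15 higher in at least 70% of pairs. The housekeeping list had a median of 0.05 and no member 2-fold apart.

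**Figure D2:**
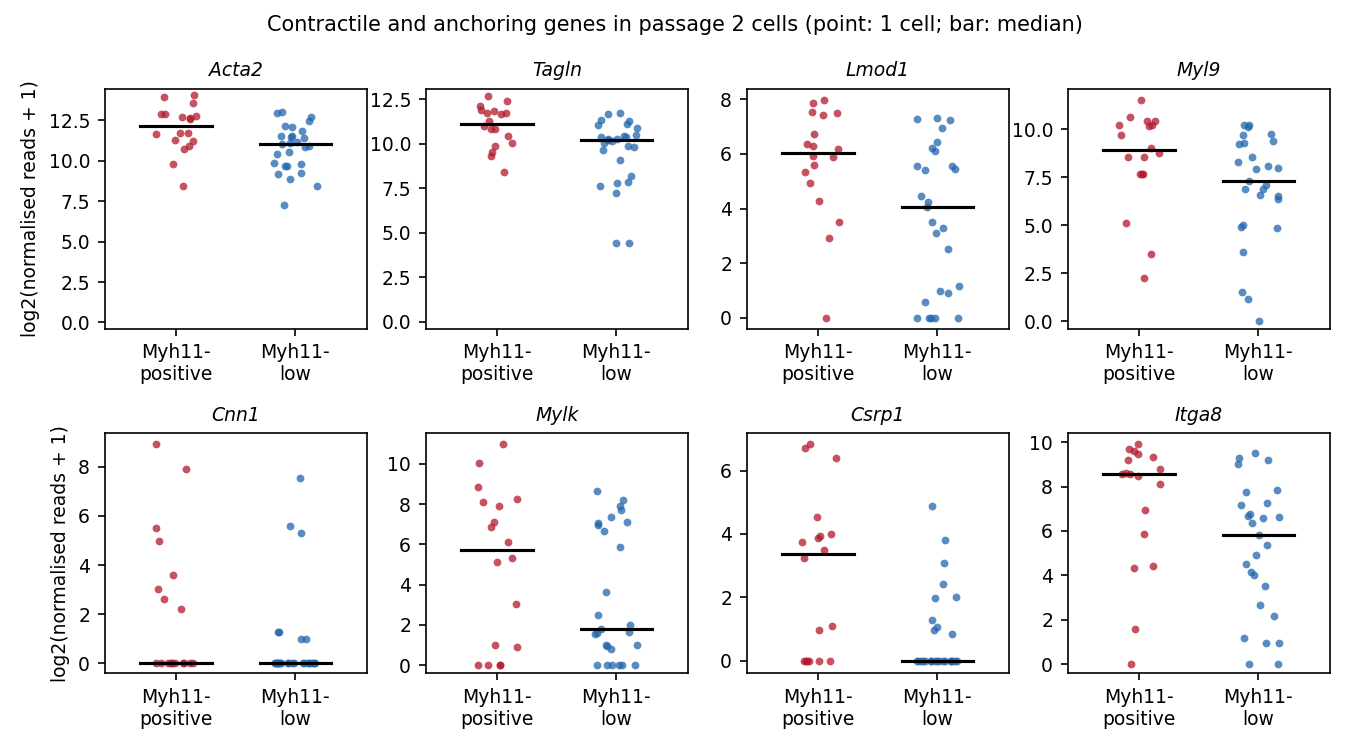
Contractile and anchoring genes in the 18 Myh11-positive and 27 Myh11-low cells, log2 of normalised reads plus 1; each point is 1 cell and the bar the median. Acta2, Tagln, Lmod1, Myl9 and Itga8 overlap between the groups with a higher median in Myh11-positive cells, while Cnn1 is at 0 in most cells of both.

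The promoters of these genes are shown because the data put Acta2, Myl9 and Myl6 among the genes that went with Myh11 in most cells, and Cnn1 among those high in few cells. Each line gives 250 bases before and 50 after a start site in RefSeq (GRCm38.p6), and capitals mark CArG boxes, or boxes with 1 C or G in the A and T core. Myl9 and Myl6 were added after their values were seen, and the Myl6 line is the second of its 2 entries.
Acta2, chr19:34255324-34255623, minus strand: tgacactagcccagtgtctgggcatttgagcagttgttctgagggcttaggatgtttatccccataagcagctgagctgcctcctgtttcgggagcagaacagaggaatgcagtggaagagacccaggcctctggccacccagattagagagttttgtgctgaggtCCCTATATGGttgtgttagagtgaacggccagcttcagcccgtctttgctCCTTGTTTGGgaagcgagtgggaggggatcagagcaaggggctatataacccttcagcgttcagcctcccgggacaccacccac
Myl9, chr2:156775214-156775513, plus strand: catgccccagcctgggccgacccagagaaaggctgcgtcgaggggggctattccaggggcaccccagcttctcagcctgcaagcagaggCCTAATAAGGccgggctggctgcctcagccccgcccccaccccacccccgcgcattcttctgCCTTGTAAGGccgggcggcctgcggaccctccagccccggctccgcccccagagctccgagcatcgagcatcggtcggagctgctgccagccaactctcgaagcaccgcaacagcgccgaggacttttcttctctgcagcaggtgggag
Myl6, chr10:128492960-128493259, minus strand: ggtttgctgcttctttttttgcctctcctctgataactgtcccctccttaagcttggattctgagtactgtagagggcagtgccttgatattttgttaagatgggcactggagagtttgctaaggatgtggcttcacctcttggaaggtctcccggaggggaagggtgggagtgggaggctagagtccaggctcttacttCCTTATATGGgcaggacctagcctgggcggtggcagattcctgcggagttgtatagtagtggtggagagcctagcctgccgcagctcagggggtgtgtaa
Cnn1, chr9:22099003-22099302, plus strand: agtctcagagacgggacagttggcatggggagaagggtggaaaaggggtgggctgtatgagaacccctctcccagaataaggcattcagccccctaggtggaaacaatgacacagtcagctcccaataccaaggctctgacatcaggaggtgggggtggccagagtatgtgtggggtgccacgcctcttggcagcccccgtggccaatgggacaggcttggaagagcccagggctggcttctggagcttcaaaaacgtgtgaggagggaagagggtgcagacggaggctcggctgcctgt

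The start of each printed entry lay inside the span of its gene, so the distances hold for that entry alone. Acta2 held 2 boxes with 1 substituted core base, 84 and 34 bases before the start. Myl9 held 2 boxes, at 161 and 99 bases before the start, of which the first was a full CArG box, and the second Myl6 entry held 1 full box 50 bases before its start while the first held none of either form. The Cnn1 window held none of either form. The box reads the same on both strands. Over all genes, 488 of 27025 (1.81%) had a full box in such a window and 3050 (11.3%) a full box or one with 1 substituted base. Of the 6307 kept genes with an entry, 100 (1.59%) had a full box and 626 (9.93%) either form. Among the 22 thin and thick filament genes with an entry the counts were 3 (13.6%) and 6 (27.3%). Full boxes were in Cnn2, Myl9 and Myl6, and Acta2, Tpm3 and Myl12a held only the other form. Of these 6 genes, only Acta2 and Myl9 were 2-fold higher in Myh11-positive cells. Among the 15 collagen genes they were 0 and 2. Of the 44 genes with an entry that were at least 2-fold higher and higher in at least 70% of pairs, 2 (4.55%) had a full box and 4 (9.09%) either form. Of the 33 genes with an entry that were lower by the same rule, 1 (3.03%) had a full box and 3 (9.09%) either form. These are matches of letters in a short window, not measured binding.

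The anchoring genes, which tie filaments to dense bodies, membrane and matrix, had more higher than lower members. Of 24 members, 19 passed the filter, at a list median of 0.65. Csrp1, Itga8, Itga1, Ldb3 and Pdlim3 had a mean at least 2-fold higher (5 of 19, 26.3%, against 11.7% of all genes). Csrp1 and Ldb3 passed the filter only through the Myh11-positive cells. Only Sgcb had a mean 2-fold lower (5.26%, against 18.6% of all genes). Sgcb, a sarcoglycan of the membrane complex, had a log2 ratio of -1.07 that lay between -1.60 without cell 5 and -0.86 without cell 40 and was -0.11 at a Myh11 threshold of 50. Without the cycling cells the count was 8 of 20 higher (40%, against 14.1% of all genes) and 2 lower (10%, against 21.7%). Pdlim3 was then no longer among the higher ones. Csrp1, a LIM protein of smooth muscle, reached 10 in 9 of 18 Myh11-positive cells (50%, 26 to 74) and in 2 of 27 Myh11-low cells (7.41%, 0.91 to 24.3). Its values ran from 0 to 114 with a median of 9.39 in Myh11-positive cells and from 0 to 28.6 with a median of 0 in Myh11-low cells, and 3 Myh11-positive cells (38, 10 and 33) lay above every Myh11-low cell. The log2 ratio was 2.79 with 72% of pairs, and it kept a value of at least 1 in all 15 alternatives besides the removal of single cells.

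Itga8, the α8 integrin chain of smooth muscle, ran from 0 to 956 with a median of 375 in Myh11-positive cells and from 0 to 722 with a median of 54.9 in Myh11-low cells. The median Myh11-positive cell was exceeded by 4 of 27 Myh11-low cells, and the log2 ratio was 1.41 with 72.8% of pairs. Zyx, zyxin of focal adhesions, averaged 463 ± 312 and 260 ± 218 with 73.5% of pairs. Csrp2, a related LIM protein, averaged 167 ± 159 and 84.8 ± 114 with 68.3% of pairs. Ldb3, a Z-disc protein, had the highest ratio of the list, 4.09, but a read in 38.9% and 22.2% of cells and medians of 0. Pdlim3, another dense body protein, had a log2 ratio of 2.35 that was 1.27 without cell 16 and 3.58 without cell 45. The intermediate filament gene Vim averaged 2473 ± 1087 and 2493 ± 1413 with 50.6% of pairs. Desmin (Des), the muscle intermediate filament, had 2 reads in all 18 Myh11-positive cells and 29 in the 27 Myh11-low cells, all in 1 cell of each group, and synemin (Synm) 0 and 14. Itga7, the laminin-binding integrin chain of contractile smooth muscle, had 242 against 19 reads and reached 10 in 3 of 18 and 0 of 27 cells.

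**Figure D3:**
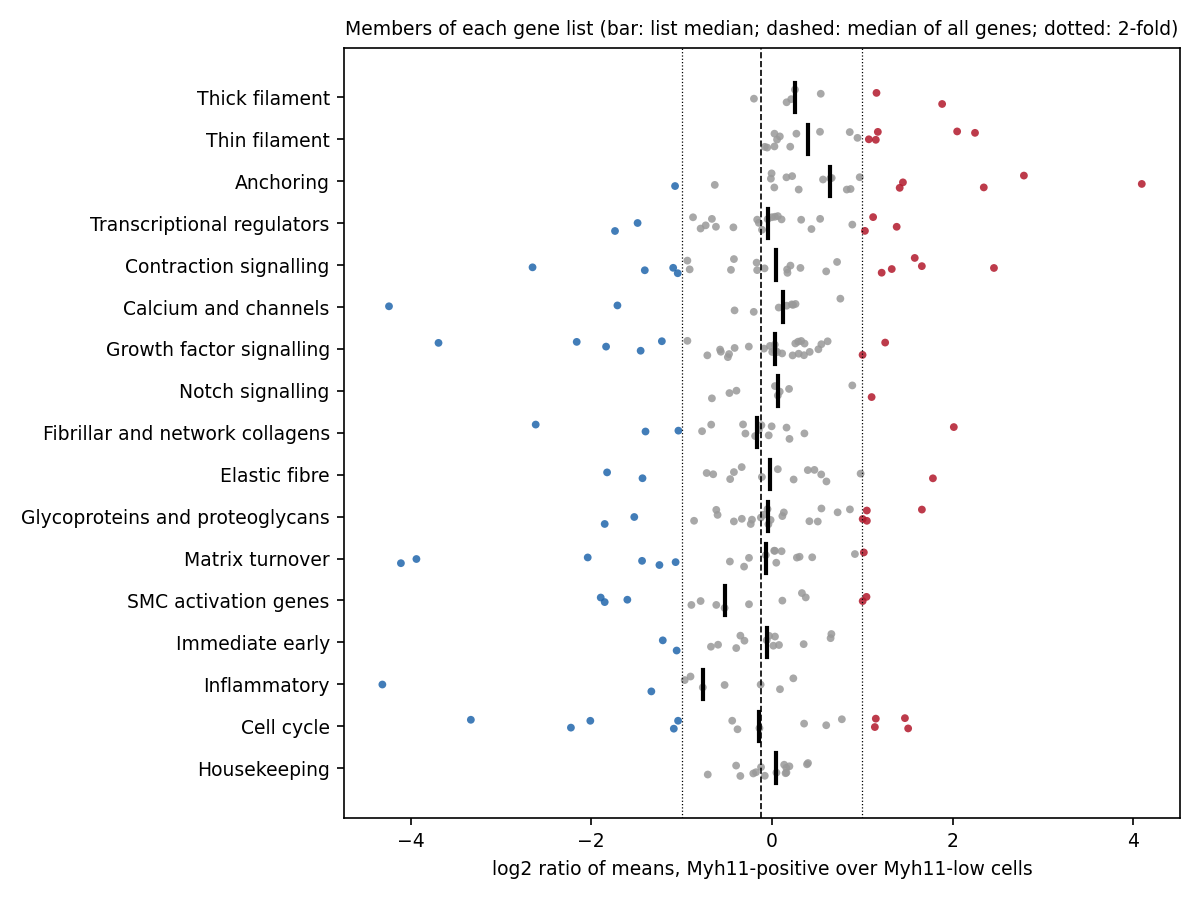
Log2 ratio of means, Myh11-positive over Myh11-low cells, for every list member that passed the filter on low values, 1 row a list. Red and blue points are at least 2-fold higher or lower, the bar is the list median and the dashed line the median of all genes, -0.12. The medians of the filament and anchoring lists lie to the right of that line. Those of the inflammatory and smooth muscle activation lists lie to its left, and most of these lists have members on both sides.

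The regulators of contractile genes were 2-fold higher at near the share of all genes. Of 23 that passed the filter among 30, 3 (13%, against 11.7% of all genes) had a mean at least 2-fold higher, Myocd, Srf and Mef2c. Klf2 and Elk3 had a mean 2-fold lower (8.7%, against 18.6% of all genes), and the list median was -0.05. Mef2c, a MADS-box factor, was the member higher in at least 70% of pairs, with 365 ± 418 and 178 ± 293, a log2 ratio of 1.03, which lay between 0.70 and 1.30 with any 1 cell left out. It was under 2-fold in each of the repeats without endothelial marker cells, cycling cells or cells with the fewest genes, and 0 regulators were then both 2-fold higher and higher in 70% of pairs. Srf, serum response factor, averaged 20 ± 37.9 and 8.67 ± 20.9 with 61.7% of pairs, and its log2 ratio of 1.12 was 1.75 without cell 31, 0.61 without cell 4, 0.67 without cell 10 and 0.08 at a Myh11 threshold of 50. Myocd, myocardin, had a read in 33.3% and 25.9% of cells with medians of 0, and its log2 ratio of 1.38 was 0.65 without cell 6, 0.93 without cell 28, 2.62 without cell 14 and -1.25 at a Myh11 threshold of 50. The LIM cofactors Fhl1 and Fhl2 had 54.3% and 51% of pairs, and Klf4, which represses contractile genes, averaged 109 ± 98.9 and 189 ± 257 with 50.9% of pairs. Klf4 was 2-fold lower without the cycling cells and without the cells with the fewest genes, but its log2 ratio was 0.64 with means of log2 values. For Elk3 the log2 ratio of -1.49 was -2.37 without cell 28.

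In contraction signalling the 2 subunits of soluble guanylate cyclase were higher and G protein α subunits were mixed. Of 22 measured members of 34, 5 had a mean at least 2-fold higher (Gucy1a1, Gucy1b1, Gna11, Pde4d and Rgs2), 22.7% against 11.7% of all genes. Prkg1, Gnaq, Gna12 and Gna13 had a mean 2-fold lower, 18.2% against 18.6% of all genes, and the list median was 0.04. Gnaq was no longer 2-fold lower without the endothelial marker cells, nor were Gnaq and Gna12 without the cycling cells, when Rgs2 was no longer higher, nor Prkg1 and Gna12 without the cells with the fewest genes. Gucy1a1, the α1 subunit, ran from 0 to 2976 with a median of 34.8 in Myh11-positive cells and from 0 to 719 with a median of 3.87 in Myh11-low cells, and 70.9% of pairs were higher. It reached 10 in 14 of 18 (77.8%, 52.4 to 93.6) and 11 of 27 cells (40.7%, 22.4 to 61.2). Its log2 ratio of 1.66 was 0.87 without cell 37, which held the 2976. Gucy1b1, the β1 subunit, had a read in 61.1% and 29.6% of cells, and its log2 ratio of 1.21 was 0.55 without cell 4 and 3.33 without cell 34.

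Gna13, a G protein α subunit, was lower, with 18.9 ± 48.1 in Myh11-positive cells and 124 ± 176 in Myh11-low cells and the Myh11-positive cell higher in 32.1% of pairs. The log2 ratio of -2.65 was -3.76 without cell 9. Gna11, which couples receptors to phospholipase C, averaged 272 ± 359 and 108 ± 194 with 68.6% of pairs. Prkg1, the cyclic GMP-dependent kinase that acts after guanylate cyclase, averaged 33.8 ± 71.4 and 73.2 ± 143 with 44.8% of pairs, and its log2 ratio of -1.09 was -1.83 without cell 33 and between -0.85 and -0.68 without cell 12, 17 or 43. Gnaq, another phospholipase C coupler, had -1.04, between -1.44 and -0.84 with any 1 cell left out. The ratios of Gna12, Pde4d and Rgs2 moved with single cells: that of Gna12, -1.41, was -2.69 without cell 44, that of Pde4d, 2.46, was 3.14 without cell 1, and that of Rgs2, 1.58, was 0.26 without cell 9 and 2.57 without cell 11. Rgs5, a G protein regulator that marks pericytes and some arterial smooth muscle, ran from 5.7 to 27455 in Myh11-positive cells and from 8.61 to 45752 in Myh11-low cells with 49.2% of pairs, so it spanned a wide range in both groups.

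Receptor and channel genes of differentiated smooth muscle were mostly too sparse to compare. Of 26 calcium and channel genes, 10 passed the filter, at a list median of 0.12. None was 2-fold higher, against 11.7% of all genes, and 2, Kcnj8 and Itpr2, were lower (20%, against 18.6%). For Itpr2 the log2 ratio of -1.71 was -0.08 without cell 8 and -2.33 without cell 5, and it was no longer 2-fold lower without the endothelial marker cells or without the cycling cells. Of those under it, Casq2, calsequestrin, had 1010 reads against 2, in 2 cells of each group, and P2rx1, the ATP-gated channel, 483 against 1 in 1 cell of each. Ryr2, the ryanodine receptor, had 170 against 10 reads, Kcnmb1, the β1 subunit of the BK channel, 130 against 6, and Cacna1c, the L-type calcium channel, 110 against 40. Reads of these 5 genes came from at most 6 cells a group. Pln, Agtr1a, Kcnma1 and Adra1d had no read in any passage 2 cell, and Ednra, the endothelin receptor, had 0 reads in Myh11-positive and 53 in 2 Myh11-low cells. The caveolae genes Cavin1 and Cav1 had log2 ratios of 0.26 and 0.23, with 57.2% and 46.9% of pairs.

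Few matrix genes separated the groups. Of 16 collagen genes that passed the filter among 19, 1 (Col6a3) had a mean at least 2-fold higher (6.25%, against 11.7% of all genes). Col4a5, Col16a1 and Col18a1 had a mean 2-fold lower (18.75%, against 18.6% of all genes), at a list median of -0.17. No collagen gene reached 70% of pairs in either direction. Col1a1, the α1 chain of type I collagen, ran from 75.7 to 1137 in Myh11-positive cells and from 0 to 1983 in Myh11-low cells, with means of 549 ± 239 and 550 ± 507. The Myh11-positive cells were thus closer to each other than the Myh11-low cells, and the 3 lowest values, from 0 to 2, lay in Myh11-low cells 8, 11 and 15, of which 8 and 11 were the endothelial marker cells and 15 the cell with few genes. Col3a1 averaged 458 ± 369 and 496 ± 625, and Col4a1, of the basement membrane, 473 ± 412 and 522 ± 502. The log2 ratios were -1.04 for Col4a5, -1.40 for Col16a1, -2.61 for Col18a1 and 2.01 for Col6a3. All 4 moved with single cells, and those of Col6a3 and Col18a1 stayed over 2-fold with any 1 cell left out: without cell 18 the log2 ratio of Col4a5 was -0.02, without cell 15 that of Col16a1 was -0.41 and without cell 30 -2.28, without cell 8 that of Col18a1 was -1.36 and that of Col6a3 was 1.43 without cell 10 and 3.20 without cell 39. Col16a1 and Col18a1 were no longer 2-fold lower without the cycling cells, nor Col4a5 and Col16a1 without the cells with the fewest genes.

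Among the matrix list members elastin had the highest share of pairs. Eln (ENSMUSG00000029675, chromosome 5, 134702593 to 134747323), which encodes the protein of the elastic lamellae, reached 10 in 15 of 18 Myh11-positive cells (83.3%, 58.6 to 96.4) and in 9 of 27 Myh11-low cells (33.3%, 16.5 to 54). It ran from 0 to 319 with a median of 42.4 in Myh11-positive cells and from 0 to 193 with a median of 4.3 in Myh11-low cells. The 2 groups overlapped at the top, where Myh11-low cells 21 and 34 held 193 and 156, yet 16 of 18 Myh11-positive cells lay above the Myh11-low median. The log2 ratio was 1.78 with 77.2% of pairs and lay between 1.24 and 3.03 over the 15 alternatives. Fbn1, fibrillin 1 of the microfibrils, averaged 594 ± 309 and 406 ± 477 with 71.2% of pairs at a log2 ratio of 0.55, and Myh11-low cells held the highest single value, 1911. Of 16 measured elastic fibre genes 1 was 2-fold higher (6.25%, against 11.7% of all genes). Ltbp2 and Ltbp4 were 2-fold lower (12.5%, against 18.6%), and the list median was -0.02. For Ltbp4 the log2 ratio of -1.82 was -2.52 without cell 22 and -2.69 without cell 25, and Ltbp2 was no longer 2-fold lower without the cells with the fewest genes. Lox, which cross-links elastin and collagen, averaged 1561 ± 1149 and 1185 ± 1262, and Fbln5, fibulin 5, 2733 ± 1067 and 2952 ± 1662.

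Among glycoproteins and proteoglycans, 4 of 25 measured members (16%, against 11.7% of all genes) had a mean at least 2-fold higher (Lama5, Npnt, Thbs2 and Dcn). Lama4 and Spp1 had a mean 2-fold lower (8%, against 18.6%), at a list median of -0.04. Without the endothelial marker cells only Lama5 was 2-fold higher and only Spp1 2-fold lower. Npnt, Thbs2, Dcn and Lama4 were also no longer 2-fold apart without the cycling cells, and Npnt and Thbs2 without the cells with the fewest genes. Lama5, the α5 chain of basement membrane laminin, had a read in 88.9% of Myh11-positive and 37% of Myh11-low cells and medians of 16.4 and 0, with a log2 ratio of 1.66 and 75.3% of pairs. It reached 10 in 12 of 18 (66.7%, 41 to 86.7) and 7 of 27 cells (25.9%, 11.1 to 46.3). Npnt, nephronectin, a ligand of the α8β1 integrin whose α chain is Itga8, had a read in 88.9% and 48.1% of cells and medians of 7.3 and 0, with 76.1% of pairs. Its log2 ratio of 1.05 was 0.59 without cell 28, 2.51 without Myh11-low cell 40, which held 697 normalised reads, and 0.16 at a Myh11 threshold of 50. Lama4 was 811 in endothelial marker cell 8, and its log2 ratio of -1.52 was 0.07 without that cell and -2.63 without cell 28. That of Thbs2, 1.05, was 1.69 without cell 17.

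The abundant matrix transcripts had close means in the groups. Fn1, fibronectin, averaged 4379 ± 2763 and 4499 ± 1909 with 42.4% of pairs, Bgn, biglycan, 4053 ± 2305 and 3699 ± 1289 with 49.4%, and Mgp, matrix Gla protein, 3549 ± 3003 and 3276 ± 2895 with 52.9%. Fmod, fibromodulin, lay between, with medians of 235 and 25.3 and 68.3% of pairs. Dcn, decorin, had means of 335 ± 517 and 166 ± 304 but 56.4% of pairs, and its log2 ratio of 1.00, at the edge of 2-fold, was 0.59 without cell 25 and -1.23 at a Myh11 threshold of 50. Of 19 measured genes of matrix turnover, 6 (31.6%, against 18.6% of all genes) had a mean 2-fold lower (Mmp2, Mmp14, Plat, Plau, P4ha2 and Plod1). Serpine2 alone had a mean 2-fold higher (5.26%, against 11.7% of all genes). Mmp2, gelatinase A, averaged 6.07 ± 10.7 in Myh11-positive cells, none above 31.5, and 107 ± 256 in Myh11-low cells with a highest value of 1307 in cell 2, without which the log2 ratio of -3.94 was -3.13. Mmp14, the membrane protease that activates it, averaged 60.7 ± 65.2 and 128 ± 158, and the Myh11-positive cell was higher in 36.4% of pairs. Its log2 ratio of -1.07 lay between -1.34 and -0.80 with any 1 cell left out, and that of Serpine2, a protease inhibitor, 1.02, was 0.57 without cell 37. Ratios of 3 others moved with single cells: Plau, -1.25, was 0.66 without endothelial marker cell 8 and -2.30 without cell 9, Plat, -4.11, was -3.03 without cell 31, and Plod1, -2.04, was -3.15 without cell 10. Without both endothelial marker cells Plau was 2-fold higher instead and Serpine2 no longer was, without the cycling cells neither was 2-fold apart, and without the cells with the fewest genes Mmp14 was no longer lower.

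**Figure D4:**
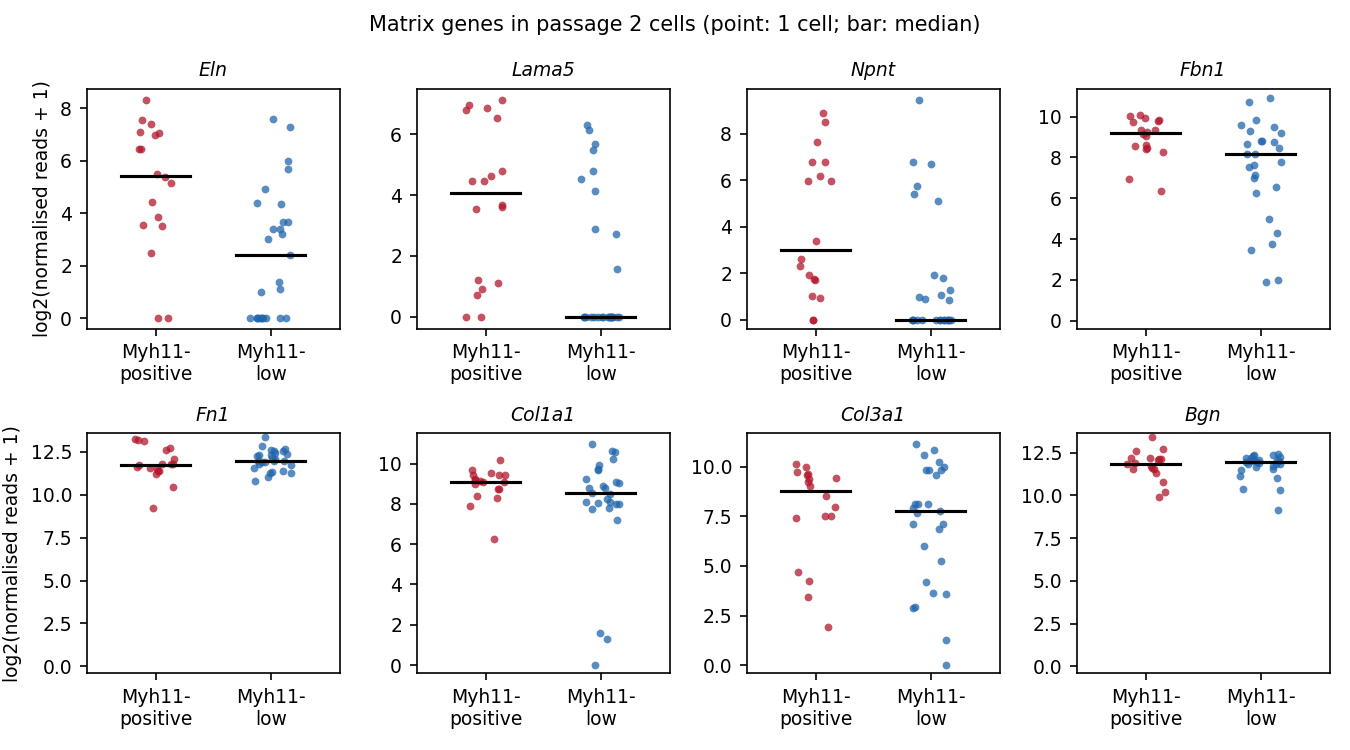
Matrix genes in the 18 Myh11-positive and 27 Myh11-low cells, log2 of normalised reads plus 1; each point is 1 cell and the bar the median. Eln, Lama5 and Npnt have higher medians in Myh11-positive cells, as do Col1a1 and Col3a1 by less, and every gene, Fn1 and Bgn included, overlaps between the groups.

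Growth factor and Notch genes had few members 2-fold apart. Of 34 measured growth factor genes 2 (Tgfb3 and Igfbp2) had a mean at least 2-fold higher (5.88%, against 11.7% of all genes). Igf1, Fgfr1, Igfbp5, Smad2 and Eng had a mean 2-fold lower (14.7%, against 18.6%), and the list median was 0.03. Tgfb3, a transforming growth factor β, averaged 432 ± 636 and 180 ± 373 with 63.6% of pairs and a log2 ratio of 1.25, or 0.84 without cell 24. Without the cells with the fewest genes Tgfb3 was 0.61 and none of the list was 2-fold higher, and without the endothelial marker cells Igfbp2 and Eng were no longer 2-fold apart. Igfbp2 had a log2 ratio of 1.00 that was -0.33 without cell 3, and of the lower genes Igf1, -3.69, was -2.39 without cell 7, Smad2, -2.16, was -1.56 without cell 36 and Eng, -1.22, was -2.63 without cell 30. Pdgfrb, the receptor for platelet-derived growth factor on mural cells, averaged 326 ± 271 and 347 ± 353. In the Notch list 1 of 9 measured members was 2-fold higher (11.1%, against 11.7% of all genes), with a list median of 0.07. This member was Notch3, the receptor of arterial smooth muscle. Notch3 averaged 40.8 ± 77.3 and 18.5 ± 43.8 with 58.4% of pairs, and its log2 ratio of 1.10 was 0.44 without cell 5, 0.89 without cell 33, 0.97 without cell 38, 1.79 without cell 36 and under 1 without the endothelial marker cells. The Notch ligand Jag1 averaged 2032 ± 1482 and 1782 ± 1636, and the Notch target Heyl 247 ± 284 and 133 ± 264.

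With all cells the inflammatory list had the lowest median of the 17 gene lists. Of 9 measured members, none had a mean 2-fold higher and 2, Icam1 and Ccl2, a mean 2-fold lower (22.2%, against the 18.6% of all genes that were lower), at a list median of -0.77. Without the cells with the fewest genes 1 of 9, Icam1, was lower and the median was -0.35. Without the cycling cells the median was -0.51, and those of the cell cycle (-0.65) and smooth muscle activation lists (-0.62) were lower. Icam1, a leukocyte adhesion molecule, averaged 4.38 ± 15.8 in Myh11-positive cells, where 1 of 18 reached 10 (67.4 in cell 19), and 106 ± 204 in Myh11-low cells, where 9 of 27 reached 10. The log2 ratio was -4.31, the Myh11-positive cell was higher in 33.1% of pairs, and the log2 ratio was -5.99 without cell 19. Ccl2, a monocyte chemokine, averaged 190 ± 323 and 481 ± 827 with 40.7% of pairs. The cytokine Il6 averaged 95.9 ± 225 and 105 ± 267 with medians of 0. Of 15 measured immediate early genes 2 (Fosb and Atf3) were 2-fold lower (13.3%, against 18.6% of all genes). None was 2-fold higher, against 11.7% of all genes, and the median was -0.06. Log2 ratios were -1.05 for Fosb and -1.21 for Atf3, and -0.87 and -0.83 at their nearest to 0 with 1 cell left out. Fosb was no longer 2-fold lower without the cycling cells or the cells with the fewest genes.

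Of 13 measured smooth muscle activation genes, 2 (Ly6a and Dcn) had a mean at least 2-fold higher (15.4%, against 11.7% of all genes). Spp1, Cd34 and Runx2 had a mean 2-fold lower (23.1%, against 18.6%), at a list median of -0.52. Without the cycling cells 6 of 13 were lower (46.2%, against 21.7% of all genes), Klf4, Vcam1 and Sox9 among them. Without the cells with the fewest genes 5 of 13 were lower (38.5%, against 18.7%), Klf4 and Sox9 among them. Ly6a and Dcn were both under 2-fold without the endothelial marker cells, at 0.95 each, and Dcn, at 0.85, without the cycling cells. Spp1, osteopontin, had a log2 ratio of -1.85 that turned to 0.49 without Myh11-low cell 36, which held 1721 normalised reads, and was -4.06 without cell 13. Runx2, the osteogenic factor, averaged 9.07 ± 21.8 and 36.5 ± 68.9 with 40.9% of pairs, and its log2 ratio of -1.90 was -2.69 without cell 22. That of Cd34, -1.60, was -4.08 without cell 16 and -0.94 without cell 42, and that of Ly6a, 1.05, was 0.43 without cell 25, 1.73 without cell 39 and 1.81 without cell 15. Cell cycle genes went both ways, and single cells set the ratios of Mki67 and Top2a. Of 15 measured members 4 were 2-fold higher (26.7%, against 11.7% of all genes) and 5 lower (33.3%, against 18.6%). Without the endothelial marker cells 5 of 13 were higher and 2 lower, without the cycling cells 1 of 7 and 2, and without the cells with the fewest genes 1 of 15 and 4. All-gene shares in these repeats were 12.9% to 14.1% higher and 17.5% to 21.7% lower. The cycling cells were themselves defined by Mki67 and Top2a of this list. The log2 ratio of Mki67 was 1.51 with all cells, 0.16 without cell 9 and 2.14 without cell 20, and that of Top2a was -2.01 with all cells, -2.81 without cell 9 and 0.45 without cell 14.

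No single cell carried the whole contractile set. Of the 16 thin filament genes, between 2 and 14 lay above their passage 2 median in a Myh11-positive cell (median 8.5) and between 1 and 14 in a Myh11-low cell (median 6). At least 10 of them did so in 8 of 18 Myh11-positive and 4 of 27 Myh11-low cells. Cell 38, with the highest Myh11, had 14 of 16, with Acta2 at 15690, Tagln at 6547 and Cnn1 at 484. Cells 3 and 19, next in Myh11, had 8 each. Cell 14, a cycling Myh11-low cell with 1 Myh11 read, also had 14, with Acta2 at 8358, Tagln at 3483, Cnn1 at 47.6 and Myocd at 205, and cells 1, 12 and 35, with no Myh11 read, had 10, 11 and 12. Cell 30, just above the Myh11 threshold, had 2, with Acta2 at 344 and no read of Itga8, and cell 13, with 90.6 normalised reads of Myh11 but few genes, had 3 and no read of Lmod1.

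The 4 cycling Myh11-positive cells had 2, 3, 5 and 9 thin filament genes above the median and Acta2 of 344 to 2456, against 6 to 14 genes and Acta2 of 1723 to 17576 in the 14 others. The 6 cycling Myh11-low cells had 6 to 14 genes and Acta2 of 469 to 8358, against 1 to 12 genes and Acta2 of 153 to 7917 in the 21 others. With all 10 left out the log2 ratio of Acta2 was 1.64.

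**Figure D5:**
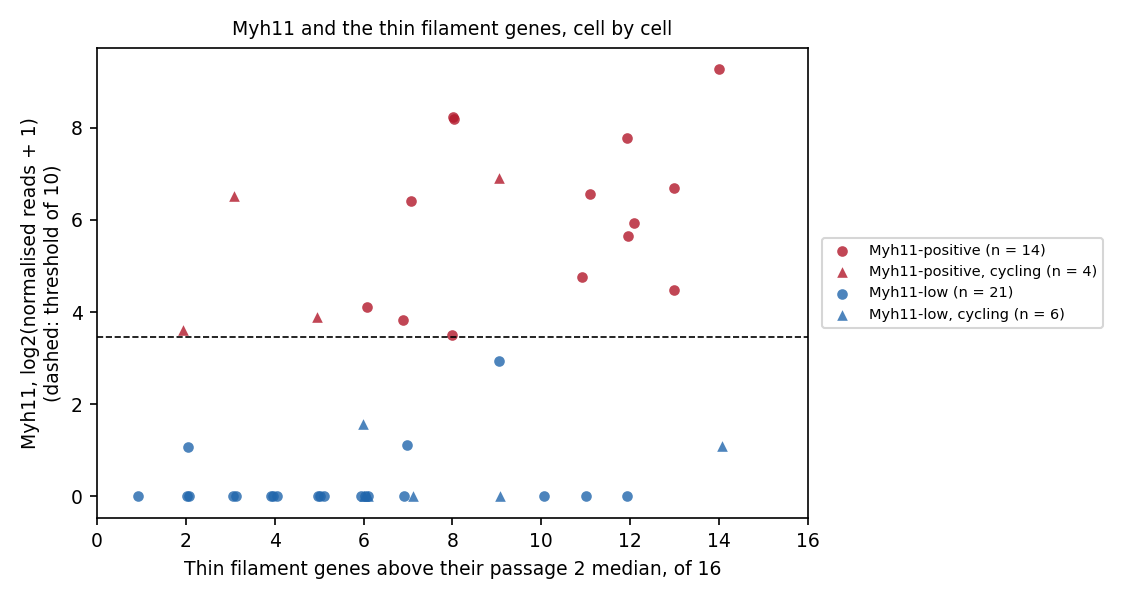
Myh11 (log2 of normalised reads plus 1) against the number of the 16 thin filament genes that lie above their median over the 45 passage 2 cells, 1 point a cell, triangles for cycling cells. Myh11-positive cells reach from 2 to 14 genes and Myh11-low cells from 1 to 14, with 8 and 4 cells at 10 or more.

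Likeness to Myh11 over single cells was weak, and 5 of the 10 genes highest in it were on the filament lists. The 10 highest Spearman correlations with Myh11 over the 45 cells, among genes detected in 50% or more of the cells, were 0.543 for Rps6kb1, 0.517 for Myl6 and for Hsdl1, 0.507 for Tagln, 0.484 for Acta2, 0.483 for Lmod1, 0.482 for Actb, 0.480 for Tpm2, and 0.464 for Rpp21 and for Lama5. The cells share a passage, a library set and their depth differences, 22 share a Myh11 value of 0, and these correlations are a description with no test. Within the 18 Myh11-positive cells alone they were 0.457 for Acta2, 0.445 for Tagln, 0.361 for Rps6kb1, 0.30 for Tpm2, 0.280 for Myl6, 0.272 for Lama5, 0.269 for Lmod1, 0.251 for Actb, 0.214 for Hsdl1 and -0.13 for Rpp21. Rps6kb1, the S6 kinase of the growth pathway, averaged 114 ± 120 in Myh11-positive and 38.5 ± 103 in Myh11-low cells with 78.2% of pairs, and its log2 ratio of 1.54 was 2.42 without cell 1. The 5 lowest were Ttc39b at -0.506, Tmbim4 at -0.460, Wdr45b at -0.455, Slc38a6 at -0.454 and Rnf6 at -0.443, and in the Myh11-positive cells alone these ran from -0.706 for Ttc39b to -0.091 for Wdr45b. Tmbim4, a membrane protein of the Golgi, averaged 36 ± 45.2 and 90.1 ± 72.1.

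The 12 genes of highest ratio among those detected in 50% or more of Myh11-positive cells and higher in at least 70% of pairs held 1 contractile list member, Csrp1. After Rmdn2, Dolk, 3110039I08Rik and Slc25a40 came Bicral, Csrp1, Zfp945, Tbl3, Hivep1, Alg3, the pseudogene Ube2d-ps and Tnk2, with log2 ratios from 5.48 down to 2.37. All of these but Zfp945 passed the filter on low values only through the Myh11-positive cells. Rmdn2, a regulator of microtubule dynamics, had 1046 reads in Myh11-positive and 3 in Myh11-low cells, and Dolk, a kinase of the dolichol pathway of glycosylation, 905 and 23. The medians in Myh11-positive cells were 1.14 and 1.09, so both rested on the upper part of the group, with highest values of 310 and 316. Among the 12 lowest were Gid8, Prr14l, Psen2, Arhgef6, Ccng2, Rwdd4a, Clcc1, Vma21, Zfp507, Jmjd1c and Commd9, with log2 ratios from -3.83 to -2.48. Of these, Gid8, Prr14l, Psen2, Arhgef6, Ccng2, Clcc1 and Zfp507 passed it only through the Myh11-low cells. Gid8, a subunit of a ubiquitin ligase complex, averaged 3.57 ± 6.84 and 64.1 ± 91.2. Vma21, an assembly factor of the proton pump of lysosomes, averaged 14 ± 15.5 and 91.7 ± 139, and was higher in the Myh11-positive cell in 26.1% of pairs. The ratios of several of these genes moved by over 1.5-fold with 1 cell. Slc25a40 was 2.18 without cell 5 and 4.11 without cell 7, Tbl3 1.99 without cell 33 and 4.00 without cell 8, and Ube2d-ps 1.67 without cell 25 and 3.07 without cell 7. That of 3110039I08Rik was 5.10 without cell 39 and 5.06 without cell 1, that of Hivep1 3.76 without cell 34, that of Bicral 3.48 and that of Tnk2 3.27 without cell 8, and that of Alg3 3.05 without cell 45. Among the lower genes, Arhgef6 was -2.04 without cell 31 and -4.70 without cell 38, Rwdd4a -2.10 without cell 36 and -4.24 without cell 22, and Jmjd1c -1.93 without cell 18 and -3.76 without cell 22. Ccng2 was -5.03 without cell 37, Prr14l -4.65 without cell 6, Zfp507 -4.47 and Commd9 -3.12 without cell 38, and Clcc1 -3.24 without cell 28. Some ratios also depended on where Myh11 divided the cells. At a Myh11 threshold of 50 they were 0.88 for Dolk, 1.21 for 3110039I08Rik, 0.54 for Ube2d-ps and -0.39 for Alg3. For any Myh11 read against none they were -0.42 for Gid8, -0.57 for Psen2, -0.98 for Rwdd4a, -0.44 for Clcc1, -0.10 for Zfp507 and -0.50 for Commd9.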

How the data were processed

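Per the labels, single cells were captured on the Fluidigm C1 and libraries made with Nextera XT. Per the submitters' processing notes BWA, SAMtools, HTSeq, DESeq and GRCm38 were used. The deposited values, a signal per gene, are counts scaled by the authors with 1 size factor a cell. Dividing each cell's values by its smallest step gave whole reads for 100% of values within 0.001, and these reads gave depths, floors and Poisson intervals. Annotation version, strand and the handling of multi-mapping reads were not given in the sources used here. GENCODE M21 named 37607 of 39179 gene IDs.

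Passage 2 cells were divided at a Myh11 value of 10. The animal or culture of a cell is not labelled, so each group was 1 sample; no count test was run on the recovered reads and no p-value is given. Kept genes had a mean of 10 or more in a group and were detected in 25% or more of the cells there, 8100 genes with Myh11 left out. The ratio was log2(mean + 1) in Myh11-positive minus that in Myh11-low cells, and the pseudocount of 1 was added to means. Pairs of cells and Spearman correlations were computed over single cells. Shares have exact Clopper-Pearson 95% intervals, which treat cells as independent and do not cover the spread between animals or cultures. Poisson intervals and floors of 3 reads cover counting error only, and PCR reads without molecular identifiers are not independent molecules. No doublet caller was run and no cell was left out. The calculation was checked only for recovering known ratios and pair percentages in simulated cells. That check says nothing on how far single cells move the ratios here. Python 3.11.15, scipy 1.17.1, R 4.3.3 and edgeR 4.0.16 (TMM factors as an alternative scaling) were used.

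The members, lists and rules were chosen with earlier results of these data known. Named genes were the 12 highest and 12 lowest ratios among genes with a read in 50% of the cells of the higher group, higher there in at least 70% of pairs and of 1 direction whichever cell was left out, the 10 highest and 5 lowest Spearman correlations, the most abundant, highest and lowest member of each list, and a set of contractile, matrix and signalling genes. Other genes named were chosen after their values were seen. One gene that the rule names is not reported here. Promoter windows came from RefSeq (GRCm38.p6). Alternatives covered the pseudocount, filter, averaging, scaling, Myh11 threshold, kinds of cells left out and single cells left out.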

Additional observations from a re-analysis of the deposited data

How the results depend on the processing

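No cell had a partner in the other group: no paired analysis was possible because the cell numbers were given in accession order and only name cells. Over 15 alternatives besides the removal of single cells, Acta2, Csrp1, Itga8 and Eln kept a log2 ratio of at least 1, as did Lmod1 in 14, Myl9 in 13 and Tagln in 12. Counts of 2-fold genes depended on the filter and the averaging. With a pseudocount of 10, 509 genes were higher and 894 lower; with no filter, 2033 and 3083; with the stricter filter, 244 and 434, of which 32 of the higher ones also held in 70% of pairs. With means of log2 values 686 genes were higher and 623 lower, and with medians over cells 1308 and 869, so that more genes were then higher than lower, against 951 and 1508 with means. Counts that also needed 70% of pairs were 192 lower at a Myh11 threshold of 50, 62 lower for Myh11 of at least 10 against 0, 115 higher and 132 lower without cycling cells, and 108 higher and 103 lower without the 25% of cells with the fewest genes. Without single cells the count of lower genes that also held in 70% of pairs ran from 32 to 65. The thin filament median was 1.17 without cycling cells and ran from 0.32 to 0.89 without single cells. The cell cycle median was 0.48 with no filter, 0.54 for any Myh11 read against none, 0.46 at a threshold of 50, 0.62 for at least 10 against 0 and 0.47 without endothelial marker cells, and ran from -0.73 without cell 9 to 0.79 without cell 14.

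Some named genes with a log2 ratio of at least 1 in size changed sign. With means of log2 values Spp1 (0.029) did so, and with medians over cells Spp1 (0.83), Ly6a (-0.65), Prkg1 (0.29) and Top2a (0.013). For any Myh11 read against none the genes were Prr14l (0.021), Arhgef6 (0.19), Plat (0.33) and Top2a (2.99). At a threshold of 50 they were Alg3 (-0.39), Myocd (-1.25) and Dcn (-1.23). For at least 10 against 0 it was Top2a (0.69), and without cycling cells Mki67 (-0.26). Cycling cells were defined by Mki67 or Top2a, so that repeat left no cell with Mki67 at 10 or more. Without single cells Top2a (from -2.81 without cell 9 to 0.45 without cell 14) and Spp1 (from -4.06 without cell 13 to 0.49 without cell 36) changed sign. Among other list members 2-fold apart, Plau (0.66) and Lama4 (0.069) did so without cell 8 and Igfbp2 (-0.33) without cell 3. Named genes with smaller ratios also changed sign, among them Col3a1 (-0.12) and Ccnd1 (-0.14), at 1.02 and 2.55 with medians over cells. Klf4 (-0.79) was 0.64 with means of log2 values. Actg2 (0.09) was -2.00 without cell 37. The Spearman correlation of Rpp21 was -0.13 in the Myh11-positive cells alone. The cause was not tested. With 1 sample a group and 18 and 27 cells, no value here measures the spread between animals or cultures, and a gene with no read in a cell may lie anywhere below the 3-read floor.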

Other observations

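Some genes that failed the filter on low values were read mainly in Myh11-positive cells. Fbln1, a fibulin of the matrix, had 336 reads in Myh11-positive and 8 in Myh11-low cells and reached 10 in 4 of 18 and 0 of 27 cells. Ano1, a calcium-activated chloride channel, went the other way, with 1 read in Myh11-positive and 272 in Myh11-low cells, and reached 10 in 0 of 18 and 3 of 27 cells. Vcan, versican, had 61 and 67 reads.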
